A study of Homo sapiens with 36 samples.

Results

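The question examined here was how far DLD-1 and Jurkat cells differed in their response to cigarette smoke extract (CSE). DLD-1 is a human colorectal adenocarcinoma line that serves as a model of intestinal epithelium, and Jurkat is a human leukaemic T-cell line. All 36 of the 36 arrays in the series entered, because the difference between the lines, (DLD-1 CSE minus DLD-1 control) minus (Jurkat CSE minus Jurkat control), uses every group. The 4 groups were chosen from the source labels and held 6 arrays of DLD-1 cells with 20% CSE, 12 arrays of DLD-1 cells with 0% CSE, 6 arrays of Jurkat cells with 20% CSE and 12 arrays of Jurkat cells with 0% CSE.

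Both lines were grown in T75 flasks and exposed for between 2 and 6 h, and the exposure time of each array was not given in the labels. No genetic change other than those of the lines themselves was named in the labels, each of the 2 lines is an established tumour line, and neither stands for primary tissue. Whether the arrays within a group were prepared from different cultures is not in the labels, and p-values therefore cover only the spread among these arrays, which could be purely technical. Total RNA was amplified, biotin-labelled and hybridised to Illumina bead arrays, with RNA quality values from 9.3 to 9.6. The arrays lay on 3 BeadChips of 12 arrays, each of which held all 4 groups.

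Cells meet smoke constituents with several partly separate programmes. Polycyclic aromatic compounds bind the aryl hydrocarbon receptor, which then switches on cytochrome P450 genes of the CYP1 family. Electrophiles and oxidants release NRF2 from its inhibitor KEAP1, and NRF2 raises enzymes for glutathione synthesis, haem breakdown and peroxide removal. Damaged proteins release heat shock factor 1, which raises HSP70 chaperones, among them the strictly inducible HSPA6, together with the DNAJ co-chaperones that deliver clients to HSP70.

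The line labels were checked against markers. Of 17 measured T cell markers, 16 were detected in both Jurkat groups, meaning on at least 6 of 12 control or 3 of 6 CSE arrays, against 1 in DLD-1 controls and 2 in DLD-1 with CSE, and their summed intensity was 15000 to 23900 per Jurkat array against 381 to 460 per DLD-1 array. All 16 measured intestinal epithelium markers were detected in both DLD-1 groups against 3 and 5 in the Jurkat groups, with sums of 41000 to 50100 against 408 to 993. Measured markers are those detected on at least 6 arrays, 17 of 19 T cell and 16 of 20 epithelium markers on the array. High counts in the matching line therefore follow partly from this filter. The array Jurkat control 7 carried a Jurkat source label and a DLD-1 line label. It had a log2 intensity of 13.43 for CD3D, a chain of the T cell receptor complex, against 13.02 to 13.59 on the other Jurkat arrays, and it was kept as a Jurkat control. Without it, 961 genes passed the test of the difference, against 1041 with it. The number of probes detected per array ranged from 16012 to 19131, and precision is limited by how many arrays each group holds.

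Values are background-corrected, quantile-normalized log2 intensities, so a difference of 1 is 2-fold. A gene was called changed at an adjusted p under 0.05 in limma, with Benjamini-Hochberg adjustment over the 16015 genes tested. Of these genes, 1041 (6.5%) had a response that differed between the lines, with a higher response in DLD-1 for 662 (4.13%) and a lower one for 379 (2.37%). Within the lines, 691 genes changed in DLD-1 (4.31%), of which 297 rose (1.85%) and 394 fell (2.46%), and 3182 changed in Jurkat (19.9%), of which 1330 rose (8.3%) and 1852 fell (11.6%). The difference was at least 2-fold for 220 genes with the higher response in DLD-1 and for 83 with the lower. The split of the 1041 genes depended on scaling: 63.6% were higher in DLD-1 with quantile normalization, while median scaling called 1345 genes with 92.5% higher and moved the median difference of all genes from -0.028 to 0.12. The sign of the difference was the same within each of the 3 BeadChips for 994 of the 1041 genes (95.5%). These genes were called from the same arrays, so this agreement follows largely from their selection and is no replication.

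The responses were then sorted by which tests they passed. A line-restricted gene passed in 1 line and in the difference, an opposite gene passed in both lines with opposite signs and in the difference, and a same-direction gene passed in both lines with 1 sign while the difference did not pass. Among the genes whose difference passed, restricted responses were the most frequent, with 774 genes in Jurkat (243 rises and 531 falls) and 140 in DLD-1 (76 rises and 64 falls). There were 219 same-direction genes (79 rises and 140 falls), 21 genes that changed the same way in both lines by unequal amounts, and 13 opposite genes. A further 93 genes passed in the difference and in neither line. Outside these classes, 2155 genes passed in Jurkat alone and 298 in DLD-1 alone without a difference that passed, and these were not called restricted. A test missed in the other line does not show that the gene was still: 10 of the 140 DLD-1-restricted genes had an unadjusted p under 0.05 in Jurkat, and 126 of the 774 Jurkat-restricted genes had one in DLD-1.

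**Figure D1:**
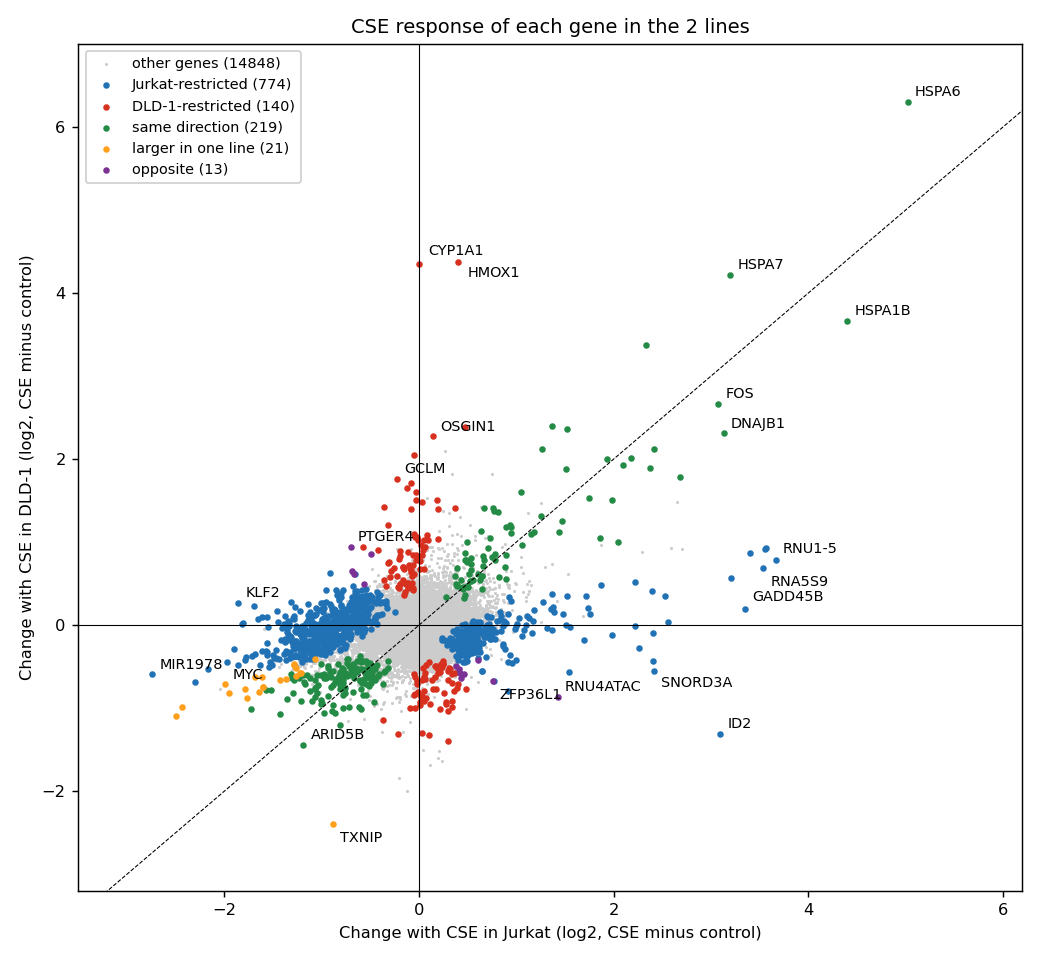
Change with CSE in Jurkat (horizontal axis) and in DLD-1 (vertical axis), both as log2 differences of group means, for all 16015 genes coloured by response class, with the dashed line marking equal change. HSPA6 lies at the upper right, CYP1A1 and HMOX1 rise along the DLD-1 axis, and RNU1-5, GADD45B and ID2 lie far along the Jurkat axis.

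Detection separated 2 kinds of restricted response. A gene was counted as expressed in a line when its probe was above the negative controls on at least 6 of the line's 18 arrays, and as not detected when it was on none. Of the 140 DLD-1-restricted genes, 82 were expressed in both lines, 25 were detected on 1 to 5 Jurkat arrays and 33 were not detected in Jurkat. Of the 774 Jurkat-restricted genes, 644 were expressed in both lines, 65 were detected on 1 to 5 arrays of a line and 65 were not detected in DLD-1. A fall cannot be seen in a line where the probe is not detected, so such a difference rests on the other line alone. Among the same-direction genes 217 of 219 were expressed in both lines, as were 12 of the 13 opposite genes. Of all 16015 genes, 11401 had a probe that met this rule in both lines. Passing in both lines favours genes detected in both, and a gene not detected in 1 line was kept only through the other. These counts therefore follow partly from the class rule and the filter. The lines differed without smoke in 62.9% of all genes, with 4722 of the 16015 higher in DLD-1 controls and 5354 higher in Jurkat controls. By the same test 79 of the 140 DLD-1-restricted genes were higher in DLD-1 controls and 29 in Jurkat controls. Of the 774 Jurkat-restricted genes, 456 were higher in Jurkat controls and 145 in DLD-1 controls.

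**Figure D2:**
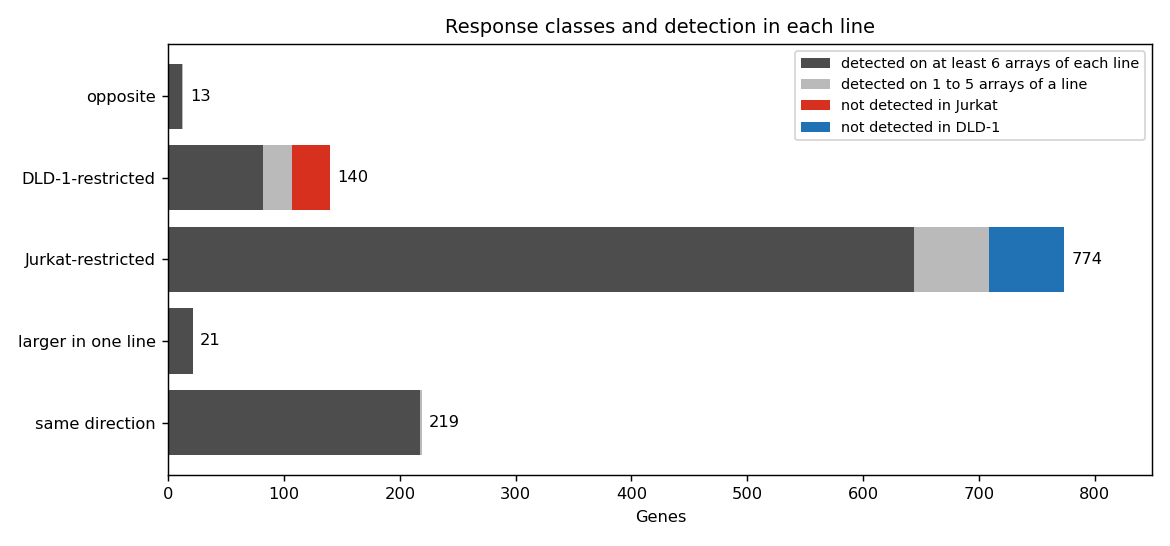
Number of genes (horizontal axis) in each response class, with each bar split by detection in the lines. Most Jurkat-restricted genes (644 of 774) were expressed in both lines, whereas 33 of the 140 DLD-1-restricted genes were not detected in Jurkat.

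Heat shock chaperones made up the strongest response that the lines shared. HSPA6 rose in both lines from a level near background, by an estimated 79.1-fold in DLD-1 and 32.5-fold in Jurkat; the size depended on background treatment, with 20.3-fold and 9.10-fold from the authors' normalized values, 25.1-fold and 11.1-fold without background correction, and 23.8-fold and 6.32-fold from a second probe. The HSP70 genes HSPA1B and HSPA7 and the co-chaperone DNAJB1 also rose in both lines without a difference that passed the test. Of 27 measured genes on the heat shock list, 18 rose (66.7%, beside 1.85% of all genes) and 0 fell in DLD-1, 13 rose (48.1%, beside 8.3%) and 0 fell in Jurkat, and 11 were in the same-direction class, which held 1.37% of all genes. The 13 Jurkat rises became 7 without Jurkat CSE replicate 5 and 8 with median scaling. The list's median change was 1.05 in DLD-1 and 0.53 in Jurkat (log2), beside medians of -0.0083 and 0.028 over all genes. The median difference between the lines was 0.37, beside -0.028 over all genes, and it was -0.27 within BeadChip 3. With median scaling 7 list members, in place of 11, were in the same-direction class.

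Promoter sequences are given for HSPA6 and SERPINH1 because both genes rose in both lines and both hold a heat shock element in this window. They are the 250 bases before the RefSeq gene start in GRCh38.p14, at chr1:161524290-161524539 on the plus strand for HSPA6 and at chr11:75562003-75562252 on the plus strand for SERPINH1, and they are written 5′ to 3′. Capitals mark the heat shock element, GAANNTTC followed by NNGAA or TTCNNGAA followed by NNTTC, searched on both strands; the first run of capitals in HSPA6 is an antioxidant-type match, TGACNNNGC on either strand.
HSPA6: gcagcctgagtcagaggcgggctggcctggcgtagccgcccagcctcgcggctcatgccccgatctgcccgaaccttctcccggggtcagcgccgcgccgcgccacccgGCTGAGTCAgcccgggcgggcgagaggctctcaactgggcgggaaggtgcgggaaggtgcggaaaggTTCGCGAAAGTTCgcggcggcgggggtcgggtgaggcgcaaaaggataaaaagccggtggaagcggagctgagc
SERPINH1: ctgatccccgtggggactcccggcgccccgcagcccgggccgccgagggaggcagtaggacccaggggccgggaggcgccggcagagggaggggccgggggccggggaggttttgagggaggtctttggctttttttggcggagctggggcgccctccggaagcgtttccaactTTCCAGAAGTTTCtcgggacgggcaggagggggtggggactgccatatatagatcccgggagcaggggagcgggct

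The element starts 74 bases before the HSPA6 start and 76 bases before the SERPINH1 start. In windows of 300 bases (250 before and 50 after the start), it was found in 4 of 57 same-direction rises with a promoter in the table (7.02%), namely HSPA6, SERPINH1, DNAJA1 and DNAJB6. It was found in 0.351% of the 10252 tested genes with a promoter and in 0.487% of all 27305 promoters. None of the 54 DLD-1-restricted rises and 1 of the 159 Jurkat-restricted rises held it. The windows of HSPA1B and DNAJB1, which also rose in both lines, held no match to this pattern. A match is a description of the letters only.

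HSPA6 was near background without smoke. Its log2 intensity on DLD-1 arrays was 4.60 to 5.67 in controls (median 5.21) and 9.26 to 13.64 with CSE (median 11.86). On Jurkat arrays it was 4.55 to 6.75 in controls (median 4.95) and 7.39 to 12.99 with CSE (median 10.34). In each line every CSE array lay above every control array, as was the case for 0.606% of all genes in DLD-1 and 3.23% in Jurkat in either direction. The probe was detected on 7 of 12 DLD-1 controls, 5 of 12 Jurkat controls and all 12 CSE arrays. The change was 6.30 ± 0.51 (SE, adjusted p = 2.3e-11) in DLD-1 and 5.02 ± 0.51 (adjusted p = 2.2e-09) in Jurkat. The difference of 1.28 ± 0.72 did not pass (adjusted p = 0.31; 95% interval -0.18 to 2.75), and within the 3 BeadChips it was 3.08, 0.72 and -1.91, so its sign was not the same throughout.

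HSPA1B encodes the main stress-inducible HSP70. Its DLD-1 values were 9.25 to 11.16 in controls (median 10.04) and 13.05 to 14.39 with CSE (median 13.87), and its Jurkat values were 6.16 to 9.41 (median 7.24) and 10.47 to 13.30 (median 12.01). No CSE array overlapped a control array in either line, and the level was lower in Jurkat controls by 2.67 (adjusted p = 2.6e-09). The rises were 3.67 and 4.40, with a difference of -0.73 ± 0.57 (adjusted p = 0.50; 95% interval -1.88 to 0.41). HSPA1A, whose coding sequence is nearly the same, gave another picture: it rose by 1.40 in DLD-1 (adjusted p = 9.1e-06), changed by 0.19 in Jurkat (adjusted p = 0.56) and was detected on 1 of 18 Jurkat arrays. Its difference of 1.21 ± 0.27 passed (adjusted p = 0.0064), but probes of these copies may not tell them apart.

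HSPA7, which is closely related to HSPA6 and may share its signal, rose by 4.22 in DLD-1 and 3.20 in Jurkat, and its difference was 1.02 ± 0.69 (adjusted p = 0.42). DNAJB1, which stimulates the HSP70 ATPase, rose by 2.31 and 3.13 with a difference of -0.82 ± 0.42 (adjusted p = 0.27; 95% interval -1.67 to 0.04). Neither line had a CSE array within the range of its controls for either gene. BAG3, an HSP70 nucleotide exchange factor linked to selective autophagy, rose by 2.12 and 2.41 (difference -0.29, adjusted p = 0.77). SERPINH1, a collagen chaperone of the endoplasmic reticulum, rose by 1.10 (adjusted p = 0.048) and 1.16 (adjusted p = 0.011), with CSE and control arrays overlapping in both lines.

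A smaller set of chaperone genes differed. HSPA4L, an HSP110-type exchange factor, had DLD-1 values of 4.53 to 6.11 in controls (median 5.02) and 5.45 to 8.04 with CSE (median 6.39), and the corresponding Jurkat ranges were 5.02 to 6.28 (median 5.40) and 4.74 to 7.23 (median 5.68). Groups overlapped in both lines. It rose by 1.51 in DLD-1 and its difference was 1.33 ± 0.42 (adjusted p = 0.047), which did not pass with BeadChip as a block (adjusted p = 0.071) and was -0.022 on BeadChip 3 alone, and it did not pass with the authors' normalized values or without background correction. HSF2, a heat shock factor, passed in neither line (-0.41 in DLD-1 and 0.26 in Jurkat) but in the difference, -0.67 ± 0.20 (adjusted p = 0.04), which did not pass with median scaling.

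FOS and JUN, which encode subunits of the transcription factor AP-1, also rose in both lines. FOS was spread widely before treatment: DLD-1 controls ran from 4.59 to 7.72 (median 6.40) and Jurkat controls from 4.42 to 9.59 (median 7.53), against 6.84 to 10.47 (median 8.96) and 8.75 to 11.09 (median 10.36) with CSE. In each line 5 of the 6 CSE arrays lay above all controls. It rose by 2.67 (adjusted p = 0.026) and 3.07 (adjusted p = 0.0019), and the interval of the difference, -2.50 to 1.68, was too wide to place the lines relative to each other. JUN rose by 1.90 and 2.37 (difference -0.47, adjusted p = 0.63). The family as a whole was not shared: FOSB rose in Jurkat alone by the test (2.65), FOSL1 and FOSL2 in DLD-1 alone (1.38 and 0.86), and JUNB and JUND in neither. Of the 31 measured immediate early genes, 5 rose (16.1%, beside 1.85% of all genes) and 1 fell (3.23%, beside 2.46%) in DLD-1. In Jurkat 9 rose (29%, beside 8.3%) and 3 fell (9.68%, beside 11.6%). The same-direction class, with 1.37% of all genes, held 2 of the 31. Stress genes of the ATF4 pathway that rose in both lines were ATF3 (2.01 and 2.18), PPP1R15A, which restores translation (1.51 and 1.98), and SESN2 (1.18 and 0.89), whose Jurkat rise did not pass with median scaling.

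LOC652750, an array entry with no role given here, was not detected in any DLD-1 control and rose at least 7.73-fold there, against the level of the dimmest detected probes. In Jurkat it rose by 2.33 (adjusted p = 0.00046), and the difference was 1.05 ± 0.69 (adjusted p = 0.40).

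Falls shared by the lines were smaller. ARID5B, a chromatin-associated factor, had DLD-1 values of 7.56 to 8.98 in controls (median 8.28) and 5.89 to 7.60 with CSE (median 6.81), and Jurkat values of 7.12 to 9.40 (median 8.62) and 6.01 to 8.10 (median 7.28). In DLD-1 5 of 6 CSE arrays lay below all controls, and in Jurkat 2 of 6. It fell by 1.44 in DLD-1 and by 1.19 in Jurkat, with a difference of -0.25 ± 0.45 (adjusted p = 0.81). SOX4, a developmental transcription factor, fell by 1.01 and 1.73 (difference 0.71, adjusted p = 0.24). SH3PXD2A, a podosome scaffold, fell by 1.06 and 0.98, but its DLD-1 fall did not pass with the authors' normalized values (-0.40, adjusted p = 0.13) or without background correction (-0.49, adjusted p = 0.088), and the array entry LOC100132740 fell by 1.07 and 1.43. In these bulk extracts, fewer cells that hold a transcript and less of it per cell cannot be told apart.

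Being in the same-direction class did not make 2 responses equal. The 95% interval of the difference lay within 1.5-fold in either direction for 79 of the 219 genes, 25 of them rises, and the median half-width of the interval was 0.46. BCL2L1, which encodes the anti-apoptotic protein Bcl-XL, changed in neither line by the test. Its values were 11.89 to 12.83 in DLD-1 controls (median 12.42), 12.11 to 12.36 with CSE (median 12.21), 10.85 to 11.92 in Jurkat controls (median 11.62) and 10.86 to 11.80 with CSE (median 11.20). The probe was detected on all 36 arrays, and treated and control ranges overlapped in both lines. The changes were -0.15 (adjusted p = 0.73) and -0.28 (adjusted p = 0.22), and the difference was 0.13 ± 0.22 (adjusted p = 0.80; 95% interval -0.32 to 0.58).

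Several targets of the aryl hydrocarbon receptor and of NRF2 rose in DLD-1 without a rise that passed in Jurkat. CYP1A1, the receptor's classical target and an oxidase of polycyclic aromatics, rose in DLD-1 and was not detected on any of the 18 Jurkat arrays. HMOX1, which breaks down haem, also rose in DLD-1. The estimated rises of CYP1A1 and HMOX1 were 20.4-fold and 20.7-fold, against 5.38-fold and 11-fold from the authors' normalized values and 6.73-fold and 12.4-fold without background correction. Of the 31 measured genes on the NRF2 list, 6 were DLD-1-restricted, namely HMOX1, OSGIN1, GCLM, SRXN1, SLC7A11 and MAFG.

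Promoters of CYP1A1 and GCLM are shown as a receptor target and an NRF2 target that responded in DLD-1. They are the 250 bases before the RefSeq start in GRCh38.p14, at chr15:74725529-74725778 and chr1:93909431-93909680, both on the minus strand and written 5′ to 3′. Capitals mark GCGTG, a pattern of 5 bases searched for as the xenobiotic element, on either strand. In GCLM the last run of capitals is the antioxidant-type element TGACNNNGC, on either strand. Both are matches of letters only, and binding of the receptor or of NRF2 at these places was not tested.
CYP1A1: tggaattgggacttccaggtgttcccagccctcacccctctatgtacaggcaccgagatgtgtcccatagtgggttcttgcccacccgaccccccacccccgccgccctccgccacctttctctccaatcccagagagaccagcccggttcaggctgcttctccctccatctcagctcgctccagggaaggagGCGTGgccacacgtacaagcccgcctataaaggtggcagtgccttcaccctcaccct
GCLM: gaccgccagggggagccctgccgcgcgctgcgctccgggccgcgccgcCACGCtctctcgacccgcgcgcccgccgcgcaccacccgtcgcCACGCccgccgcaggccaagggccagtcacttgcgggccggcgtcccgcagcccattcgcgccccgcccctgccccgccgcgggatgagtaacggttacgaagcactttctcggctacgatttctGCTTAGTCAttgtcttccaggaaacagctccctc

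GCGTG starts 57 bases before the CYP1A1 start, and the antioxidant-type element starts 34 bases before the GCLM start. Both motifs are common: GCGTG was found in 46.3% of DLD-1-restricted rises with a promoter, 5130 of the 10252 tested genes and 36.3% of all promoters, and TGACNNNGC in 20.4%, 15.1% and 13.6%. The cAMP response element TGACGTCA was found in 7.41% of DLD-1-restricted rises, 3.28% of tested genes and 1.98% of all promoters.

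CYP1A1 values were 4.35 to 6.15 in DLD-1 controls (median 4.76) and 8.58 to 10.73 with CSE (median 9.15), against 4.31 to 4.58 (median 4.43) and 4.30 to 4.57 (median 4.42) in Jurkat. All 6 CSE arrays of DLD-1 lay above all of its controls, of which 5 of 12 were detected, and the Jurkat arrays stayed at the level of undetected probes. The rise in DLD-1 was 4.35 ± 0.25 (adjusted p = 5.7e-16) and the difference 4.34 ± 0.35 (adjusted p = 5.6e-11). CYP1B1, another CYP1 oxidase, was expressed in both lines, with detection on 18 DLD-1 and 9 Jurkat arrays. Its DLD-1 values were 8.57 to 9.62 in controls (median 9.06) and 9.99 to 11.10 with CSE (median 10.51), and those of Jurkat were 4.51 to 5.96 (median 5.12) and 4.70 to 5.60 (median 5.17). The DLD-1 groups were separate and the Jurkat groups overlapped, with changes of 1.503 and -0.04 and a difference of 1.54 ± 0.28 (adjusted p = 0.00057).

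Another target did rise in both lines. TIPARP, a mono-ADP-ribosyltransferase that limits the receptor, had DLD-1 values of 7.90 to 9.95 in controls (median 8.97) and 10.76 to 11.88 with CSE (median 11.24), and Jurkat values of 7.32 to 8.14 (median 7.89) and 8.89 to 9.70 (median 9.13). The groups were separate in each line. The rises were 2.40 (adjusted p = 1.2e-08) and 1.36 (adjusted p = 6.6e-05), and the difference of 1.04 did not pass (adjusted p = 0.063). That call turned with the scaling: the difference was 1.26 with median scaling (adjusted p = 0.016), 1.11 with the authors' normalized values (adjusted p = 0.017) and 1.08 without background correction (adjusted p = 0.025). AHR, the receptor itself, was detected on all arrays of both lines and fell by 0.94 in Jurkat (adjusted p = 2e-05), with a change of -0.35 in DLD-1 (adjusted p = 0.23); a second probe changed by -0.13 in Jurkat. Of the 8 measured list members, 2 passed in the difference, both with the higher response in DLD-1 (beside 4.13% of all genes); median scaling gave 4, and the authors' normalized values and no background correction gave 3 each.

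HMOX1 had DLD-1 values of 5.87 to 8.09 in controls (median 6.81) and 10.37 to 12.60 with CSE (median 10.97), and Jurkat values of 4.54 to 5.71 (median 4.83) and 4.72 to 6.48 (median 5.16). DLD-1 groups were separate, while in Jurkat only CSE replicate 5 lay above all controls and the probe was detected on 3 control and 3 CSE arrays. The changes were 4.37 ± 0.29 (adjusted p = 8.4e-14) and 0.40 ± 0.29 (adjusted p = 0.38), with a difference of 3.97 ± 0.41 (adjusted p = 4.5e-08).

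GCLM is the modifier subunit of glutamate-cysteine ligase, which catalyses the first step towards glutathione. In DLD-1 its values were 8.15 to 9.29 in controls (median 8.84) and 9.14, 9.28, 11.70, 11.77, 11.88 and 9.62 on CSE replicates 1 to 6, and Jurkat values were 8.26 to 9.20 (median 8.53) and 7.90 to 8.63 (median 8.46). The 3 high arrays in DLD-1 were those on BeadChip 2, while 9.14 and 9.28 lay within the range of the controls and 9.62 above it. The changes were 1.76 and -0.23 with a difference of 2.00 ± 0.40 (adjusted p = 0.0019), which was 0.90, 3.11 and 0.88 within BeadChips 1, 2 and 3. A second GCLM probe gave 1.55 and -0.80 with a difference of 2.35. Each of these values passed, the Jurkat fall at an adjusted p of 0.035 in limma. By that probe alone GCLM would be an opposite gene, so the probes disagreed on Jurkat.

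The same 3 DLD-1 arrays were highest for SRXN1, OSGIN1 and SLC7A11. SRXN1, which repairs oxidised peroxiredoxins, had values of 10.29 to 12.38 with CSE in DLD-1 (median 11.24) against 8.88 to 10.36 in controls (median 9.65), and of 7.32 to 8.14 (median 7.85) against 7.64 to 8.15 (median 7.87) in Jurkat. The overlap in DLD-1 involved 2 of the 6 CSE arrays. Its difference was 1.79 ± 0.36 (adjusted p = 0.002), and it was 0.66, 3.06 and 0.84 within the BeadChips. OSGIN1, an oxidative stress-induced growth inhibitor, rose by 2.28 in DLD-1 with a difference of 2.14 ± 0.61 (adjusted p = 0.029), and within the BeadChips it was 1.19, 2.77 and 1.16.

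SLC7A11, the cystine importer that feeds glutathione synthesis, was not detected on any Jurkat array and rose by 1.60 in DLD-1 (adjusted p = 0.0011). Its difference was 1.63 ± 0.44 (adjusted p = 0.02), but within BeadChip 3, which held 1 DLD-1 CSE array, it was -0.29. MAFG, a small MAF protein that pairs with NRF2, rose by 1.42 in DLD-1 with a difference of 1.78 (adjusted p = 0.003). The part of BeadChip or of the unlabelled exposure time in these values was not tested.

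Over the whole NRF2 list, 8 of 31 genes passed in the difference, all with the higher response in DLD-1, beside 4.13% of all genes. In DLD-1 8 rose (25.8%, beside 1.85% of all genes) and 0 fell. In Jurkat 2 rose (6.45%, beside 8.3%) and 1 fell (3.23%, beside 11.6%). The median difference was 0.15, and it was -0.18, 0.40 and 0.22 within BeadChips 1, 2 and 3. Leaving out DLD-1 CSE replicate 3 or replicate 5 lowered the 8 genes to 4. The remaining pair of the 8 were GCLC, the catalytic partner of GCLM, which fell by 0.57 in Jurkat (adjusted p = 0.031; difference 0.91), and MAFF, which passed in neither line (0.68 and -0.48; difference 1.16), although a second MAFF probe rose by 1.31 in DLD-1 (adjusted p = 0.00072). A second GCLC probe did not pass in Jurkat or in the difference. Not all targets took part: NQO1, a quinone reductase and standard NRF2 target, changed by 0.17 in DLD-1 and -0.14 in Jurkat, with neither passing, and TXNRD1, thioredoxin reductase, rose by 0.92 in DLD-1 with a difference of 1.15 that did not pass (adjusted p = 0.054), though that of a second probe did (1.40, adjusted p = 0.017).

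**Figure D3:**
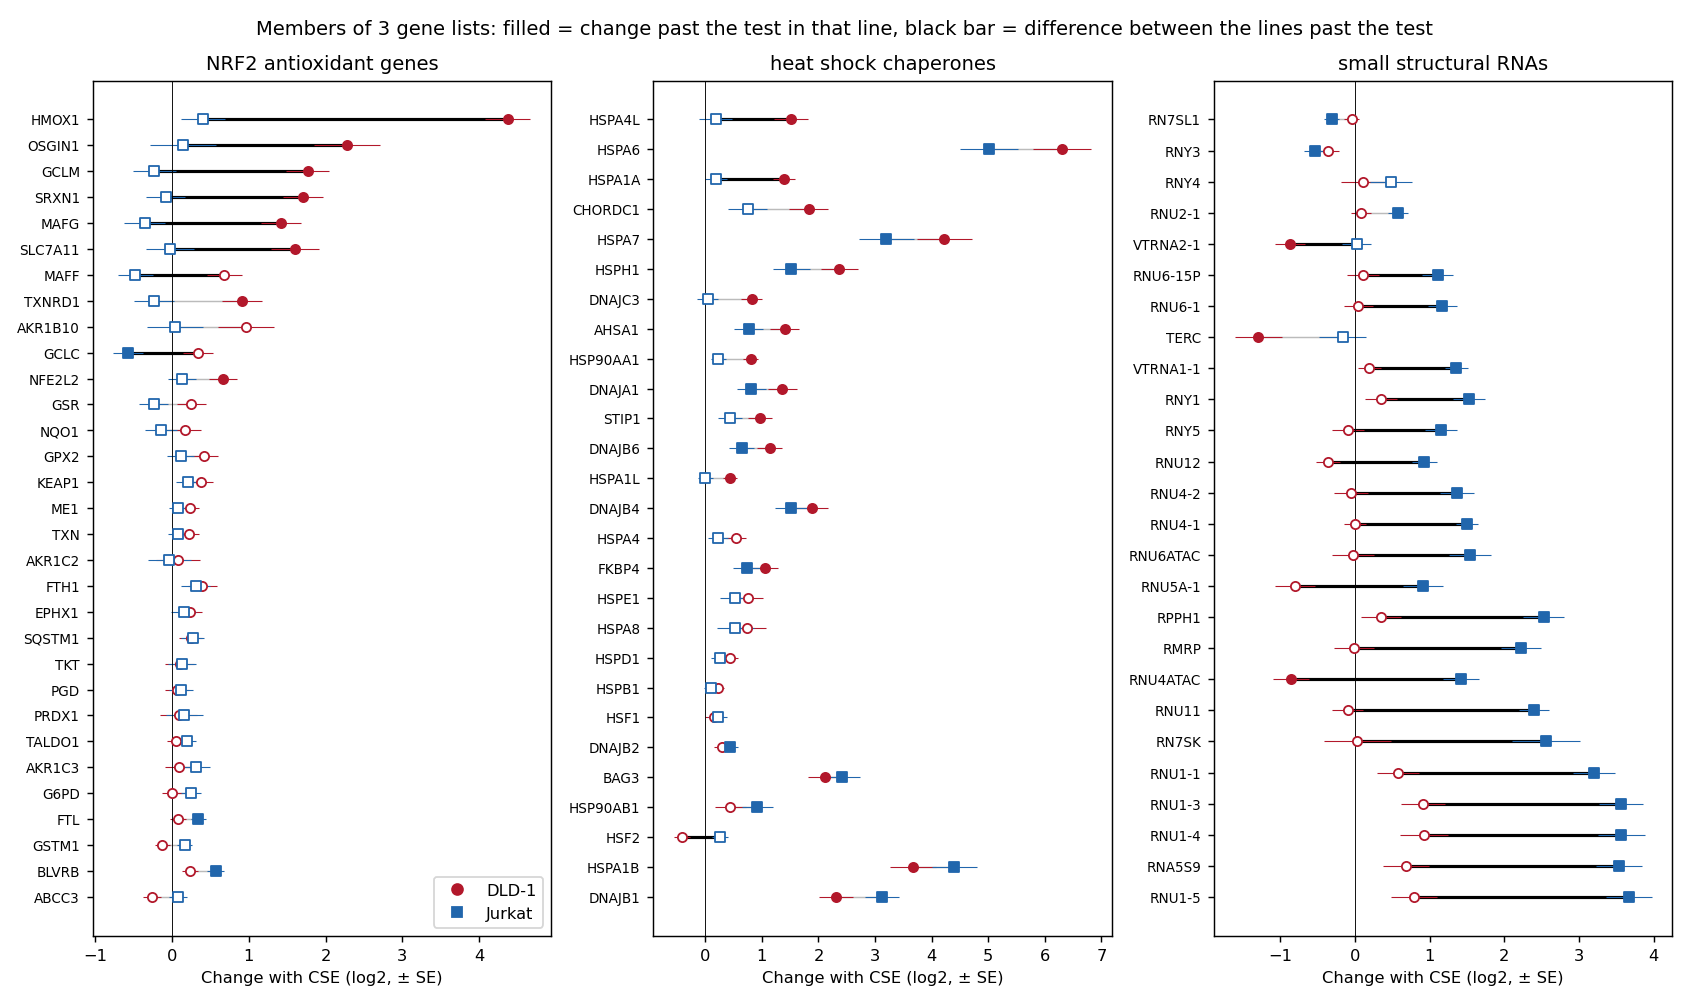
Change with CSE (horizontal axes, log2 ± SE) in DLD-1 (circles) and Jurkat (squares) for the members of 3 gene lists, with filled symbols for changes that passed the test and a black bar where the difference between the lines passed. DLD-1 lies to the right for the 8 NRF2 genes with a black bar, and 24 of the 27 heat shock genes have no black bar. Jurkat lies to the right for all 21 small RNAs that differed, of which 20 rose in Jurkat and VTRNA2-1 fell in DLD-1.

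FAM43A and NUAK2 changed in DLD-1 and were at background in Jurkat by the probes used here. FAM43A, a gene of poorly known function, had DLD-1 values of 5.91 to 7.43 in controls (median 7.21) and 8.67 to 9.60 with CSE (median 9.05). NUAK2, a kinase related to AMPK, had DLD-1 values of 6.60 to 7.70 in controls (median 7.21) and 5.41 to 6.36 with CSE (median 5.83). CSE and control arrays of DLD-1 were separate for both genes, and neither probe was detected on any Jurkat array. A second NUAK2 probe was detected on 1 Jurkat array and gave a difference of -0.91 (adjusted p = 0.0042). FAM43A rose by 2.05 (difference 2.10 ± 0.22, adjusted p = 4.5e-08) and NUAK2 fell by 1.33 (difference -1.43 ± 0.18, adjusted p = 3.2e-06). A fall of NUAK2 could not be seen in Jurkat with these probes. ID1, an inhibitor of helix-loop-helix factors, fell by 1.40 in DLD-1 (adjusted p = 0.012) and changed by 0.29 in Jurkat (difference -1.69, adjusted p = 0.031), but a second probe did not pass (difference -1.26, adjusted p = 0.11). MXD4, a MAX-binding repressor, fell by 0.70 in DLD-1 with a difference of -1.04 (adjusted p = 0.022). With median scaling neither difference passed, and the fall of MXD4 was lost as well.

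Small structural RNAs, mainly those of the splicing and RNA-processing machinery, mostly rose with CSE in Jurkat, and no member of this list rose in DLD-1 by the test. Of 26 measured small structural RNAs, 21 rose (80.8%, beside 8.3% of all genes) and 2 fell (7.69%, beside 11.6%) in Jurkat. In DLD-1 0 rose and 3 fell (11.5%, beside 2.46%), and 21 had a lower response in DLD-1, beside 2.37% of all genes. The median change was 1.40 in Jurkat and 0.02 in DLD-1, and the median difference was -1.46; it was -1.51, -2.36 and -1.30 within the BeadChips. With median scaling 19 of them still had the lower response in DLD-1 and none the higher. Most of these RNAs carry no poly(A) tail, from which the amplification kit primes, and how far the intensities follow their abundance was not tested.

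RNU1-5, a copy of the U1 RNA that recognises 5′ splice sites, had DLD-1 values of 7.11 to 8.88 in controls (median 7.83) and 7.97 to 9.32 with CSE (median 8.89), and Jurkat values of 6.97 to 8.42 (median 8.002) and 10.29 to 12.67 (median 11.50). The Jurkat groups were separate, and in DLD-1 3 of 6 CSE arrays lay above all controls. It rose by 3.67 in Jurkat (adjusted p = 5e-11) and changed by 0.79 in DLD-1 (adjusted p = 0.15), with a difference of -2.88 ± 0.44 (adjusted p = 5.9e-05). The near-identical copies RNU1-3 and RNU1-4 each had a difference of -2.64, and these probes may report the same RNA.

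RNA5S9, a copy of the 5S ribosomal RNA, had DLD-1 values of 6.12 to 7.53 in controls (median 6.63) and 6.93 to 8.25 with CSE (median 7.27), and Jurkat values of 8.004 to 9.21 (median 8.73) and 10.58 to 13.52 (median 12.44). Jurkat groups were separate and DLD-1 groups overlapped. The changes were 3.53 in Jurkat and 0.69 in DLD-1, with a difference of -2.85 ± 0.43 (adjusted p = 6e-05). SNORD3A and SNORD3D, copies of the U3 RNA that guides ribosomal RNA cleavage, rose by 2.42 and 2.41 in Jurkat and changed by -0.55 and -0.43 in DLD-1, with differences of -2.96 and -2.84.

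Other spliceosome RNAs moved as well, among them RNU11 of the minor spliceosome. RNU11 had DLD-1 values of 4.64 to 5.66 in controls (median 5.10) and 4.76 to 5.49 with CSE (median 4.98), and Jurkat values of 5.59 to 6.82 (median 5.94) and 7.76 to 9.54 (median 8.10). Its difference, -2.50 ± 0.29, had the smallest adjusted p on the list (4.9e-07), and the Jurkat groups did not overlap. RNU4-1, the U4 RNA, rose by 1.51 in Jurkat and changed by 0.00 in DLD-1. Its probe was detected on 3 of 12 DLD-1 controls, 2 of 6 DLD-1 CSE arrays, 1 of 12 Jurkat controls and all 6 Jurkat CSE arrays. The RNU4-1 rise was therefore set against values near background, and it was 0.48 with the authors' normalized values.

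RMRP, the RNA of RNase MRP, was not detected on any DLD-1 array. Its Jurkat values were 4.52 to 4.96 in controls (median 4.60), detected on 1 of 12, and 5.33 to 8.26 with CSE (median 6.95), detected on all 6. Its estimated rise of 2.22 (adjusted p = 8.2e-08; difference -2.23 ± 0.38, adjusted p = 0.00026) was set against values at background, and it was 0.92 with the authors' normalized values (difference -0.92, adjusted p = 0.0036). SNORD12, a small nucleolar RNA, was likewise not detected in DLD-1 and rose by 1.48 in Jurkat (difference -1.34, adjusted p = 0.0062). The 7SK RNA RN7SK, which holds back transcription elongation, and the RNase P RNA RPPH1 rose by 2.56 and 2.53 in Jurkat and changed by 0.03 and 0.35 in DLD-1.

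Members of the list did not all behave alike. RN7SL1, the RNA of the signal recognition particle, and RNY3 fell in Jurkat by 0.31 and 0.53. VTRNA2-1 fell by 0.87 in DLD-1 and was not detected in Jurkat, where a fall could not be seen. TERC, the telomerase RNA, fell by 1.29 in DLD-1 (adjusted p = 0.012), with a difference of -1.13 that did not pass (adjusted p = 0.12).

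ID2 had the widest difference that passed among genes expressed in both lines. ID2, like ID1, holds helix-loop-helix factors away from DNA. Its DLD-1 values were 11.17 to 12.89 in controls (median 12.05) and 9.18 to 11.74 with CSE (median 11.05), and its Jurkat values were 4.87 to 8.39 (median 5.37) and 6.93 to 10.78 (median 9.17). The level was high in DLD-1 and low in Jurkat without smoke, and with smoke 4 of 6 Jurkat arrays lay above all controls while 3 of 6 DLD-1 arrays lay below theirs. It rose by 3.10 ± 0.49 in Jurkat (adjusted p = 9.5e-06) and changed by -1.31 ± 0.49 in DLD-1, which did not pass (adjusted p = 0.13). The difference was -4.40 ± 0.69 (adjusted p = 0.00011), and a second probe gave -4.27.

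GADD45B, a stress sensor that acts on MAP kinase signalling, rose by 3.35 ± 0.41 in Jurkat and changed by 0.20 ± 0.41 in DLD-1. Its Jurkat values were 5.34 to 6.96 in controls (median 5.73) and 8.11 to 10.58 with CSE (median 9.30), and its DLD-1 values were 6.98 to 10.06 (median 8.83) and 7.57 to 9.89 (median 8.77). Jurkat groups were separate, and with smoke the Jurkat arrays lay in or above the range of the DLD-1 arrays. The difference was -3.16 ± 0.58 (adjusted p = 0.00066). BAMBI, a decoy receptor for TGF-beta family ligands, rose by 1.001 in Jurkat (difference -1.43, adjusted p = 0.0082). CD5, a T cell surface receptor not detected in DLD-1, rose by 0.60 (difference -0.61, adjusted p = 0.04), and the difference did not pass with median scaling.

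Within the Jurkat CSE group the same 3 arrays, replicates 1, 4 and 5, were highest for several of these genes. RNU1-5 was 12.67, 12.67 and 11.88 on them and 11.13, 10.29 and 10.48 on replicates 2, 3 and 6. ID2 was 10.78, 9.94 and 10.51 against 8.41, 6.93 and 7.67, and HSPA6 was 10.79, 10.90 and 12.99 against 9.32, 7.39 and 9.88. Replicates 1 to 3 were on BeadChip 1, replicate 4 on BeadChip 2 and replicates 5 and 6 on BeadChip 3, so this order did not follow the BeadChips. Whether it followed exposure time was not tested, since the labels give no time per array.

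**Figure D4:**
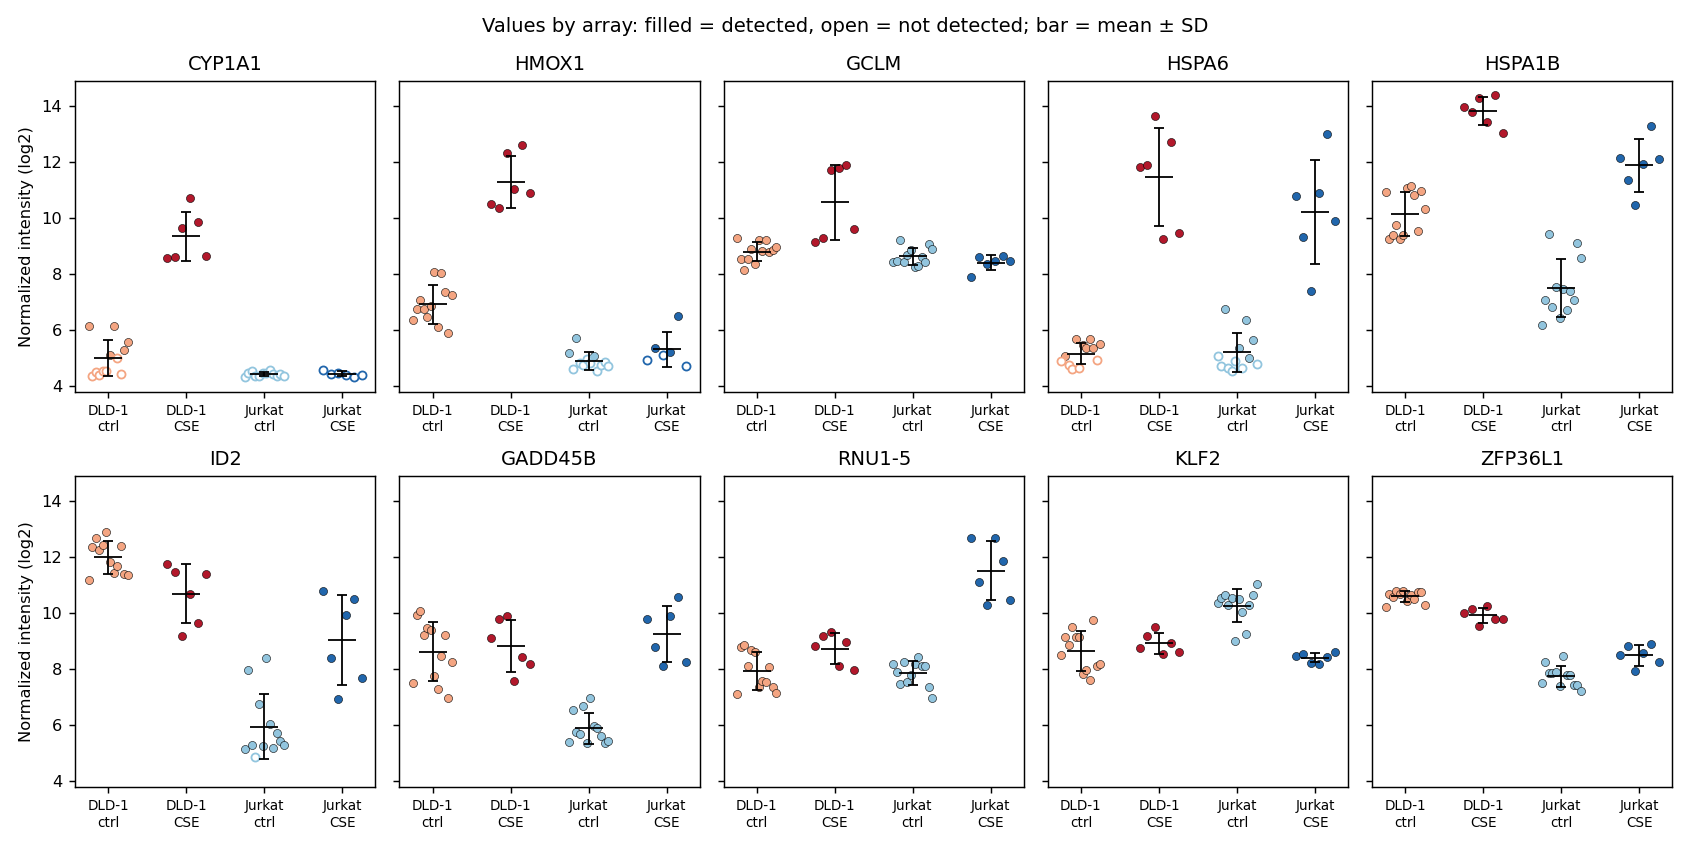
Normalized log2 intensity (vertical axes) of 10 genes on every array, by group, with filled points where the probe was detected, open points where it was not, and bars for mean ± SD. CYP1A1 lies at background on all Jurkat arrays, GCLM splits the 6 DLD-1 CSE arrays into 3 high and 3 low, and RNU1-5 lies above all controls on the 6 Jurkat CSE arrays.

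Falls formed the larger share of the Jurkat-restricted class. KLF2, a quiescence and trafficking factor of T cells, had Jurkat values of 8.998 to 11.03 in controls (median 10.44) and 8.20 to 8.60 with CSE (median 8.45), and DLD-1 values of 7.63 to 9.77 (median 8.68) and 8.54 to 9.49 (median 8.84). Jurkat groups were separate and the DLD-1 CSE values lay within those of the controls. It fell by 1.86 in Jurkat and changed by 0.27 in DLD-1, with a difference of 2.13 ± 0.37 (adjusted p = 0.00035). ZNF264, a zinc finger protein, fell by 1.70 (difference 1.92, adjusted p = 4.5e-05), and the array entry MIR1978 fell by 2.74 in Jurkat (difference 2.15, adjusted p = 0.0079).

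LRRC58 fell by 1.81 in Jurkat and changed by 0.03 in DLD-1, with a difference of 1.83 (adjusted p = 8.1e-05). A second probe gave a difference of 0.92 (adjusted p = 0.0042) with a rise of 0.57 in DLD-1 (adjusted p = 0.012). Its Jurkat change of -0.34 did not pass (adjusted p = 0.086), so the probes disagreed on both lines. PSMD12, a proteasome lid subunit, fell by 0.67 in Jurkat with a difference of 0.66 (adjusted p = 0.0076), while the other 30 of 31 proteasome genes did not pass. The further PSMD12 probes did not show this fall: one, detected on all arrays, rose by 0.64 in DLD-1 (adjusted p = 0.027) and changed by 0.08 in Jurkat (difference 0.56, adjusted p = 0.19), and the other had a difference of 0.01.

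BCL11B, TAL1 and RAG1, genes of the T lineage, were among the falls. BCL11B, a T cell commitment factor, had Jurkat values of 9.79 to 11.65 in controls (median 10.90) and 8.79 to 9.88 with CSE (median 9.14), with 5 of 6 CSE arrays below all controls. It fell by 1.65 (adjusted p = 2.7e-09; difference 1.73 ± 0.24, adjusted p = 2.1e-05). TAL1, the leukaemia transcription factor active in Jurkat, fell by 1.10 (difference 1.11, adjusted p = 0.0071), and RAG1, a recombinase, fell by 1.07 (difference 1.08, adjusted p = 0.0011). BCL11B and TAL1 were not detected on any DLD-1 array and RAG1 on 1 of 18. A fall in DLD-1 could therefore not be seen for these genes, and their differences restate the Jurkat falls. Of 17 T cell markers, 2 rose (11.8%, beside 8.3% of all genes) and 4 fell (23.5%, beside 11.6%) in Jurkat, and CD3D, CD3E and LCK did not pass.

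Among genes that oppose apoptosis, XIAP and BCL2 fell in Jurkat with a difference from DLD-1 that passed. XIAP, a caspase inhibitor, had Jurkat values of 5.63 to 6.40 in controls (median 6.13) and 4.61 to 5.11 with CSE (median 4.78), and DLD-1 values of 5.04 to 6.33 (median 5.57) and 5.01 to 6.25 (median 5.89). Jurkat groups were separate, and the probe was detected on all 12 controls and 1 of 6 CSE arrays. It fell by 1.22 (difference 1.40 ± 0.24, adjusted p = 0.00034). BCL2 fell by 1.10 (difference 1.14 ± 0.26, adjusted p = 0.0069). Its probe was detected on 1 of 18 DLD-1 arrays, so a fall there could not be seen and its difference restates the Jurkat fall. The further BCL2 probes disagreed: one fell by 1.28 in Jurkat (difference 1.29, adjusted p = 0.00015), whereas the other rose there by 0.45 (adjusted p = 0.018) with a difference of -0.56 that did not pass (adjusted p = 0.079). Of the 9 measured list members, 4 fell in Jurkat (beside 11.6% of all genes) and 0 rose, and 1, MCL1, rose in DLD-1 (0.91, adjusted p = 0.0015), beside 1.85% of all genes. SMAD6, an inhibitor of BMP signalling, fell by 0.84 in Jurkat (difference 0.82, adjusted p = 0.018), and MGA, a MAX partner, fell by 0.81 (difference 0.93, adjusted p = 0.0096); a second MGA probe, detected on 7 of 36 arrays, had a difference of 0.12.

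Genes that changed the same way by unequal amounts were nearly all falls that were deeper in Jurkat, 20 of 21. MYC, the growth-promoting transcription factor, had DLD-1 values of 9.83 to 11.16 in controls (median 10.67) and 9.56 to 10.54 with CSE (median 9.71), and Jurkat values of 10.98 to 11.95 (median 11.37) and 9.03 to 9.82 (median 9.40). The Jurkat groups were separate and 4 of 6 DLD-1 CSE arrays lay below all controls. It fell by 1.99 in Jurkat (adjusted p = 3.8e-10) and by 0.71 in DLD-1 (adjusted p = 0.019), with a difference of 1.28 ± 0.26 (adjusted p = 0.0026). With median scaling the DLD-1 fall did not pass (-0.55, adjusted p = 0.13). Its dimerisation partner MAX passed in the difference alone (0.46 and -0.43; 0.89, adjusted p = 0.014); 1 of its 3 further probes passed as well (0.75), while those at 0.32 and -0.08 did not. With each of the 3 other scalings its Jurkat fall passed. Other members of this group were the chromatin genes ARID1A and EP400, the silencing scaffold TNRC6B, and TMEM181, which fell by 0.82 and 1.96. The difference did not pass for EP400 or TNRC6B with the authors' normalized values or without background correction, and median scaling lost the DLD-1 fall of ARID1A.

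TXNIP, which binds thioredoxin and restrains glucose uptake, was the only one of the 21 with the larger change in DLD-1. Its DLD-1 values were 9.51 to 10.84 in controls (median 10.27) and 6.97 to 8.85 with CSE (median 7.81), and its Jurkat values were 7.27 to 8.73 (median 7.85) and 6.48 to 7.57 (median 7.03). DLD-1 groups were separate, and in Jurkat 3 of 6 CSE arrays lay below all controls. It fell by 2.39 ± 0.24 in DLD-1 (adjusted p = 4.5e-09) and by 0.88 in Jurkat (adjusted p = 0.0057), with a difference of -1.51 ± 0.33 (adjusted p = 0.0052).

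With quantile normalization, opposite changes were rare and small. Of the 13 genes, 5 rose in DLD-1 and fell in Jurkat (PTGER4, ZNF791, TENT5C, ASB1 and HOXC8), and 8 fell in DLD-1 and rose in Jurkat (RNU4ATAC, ZFP36L1, TAB1, MTND5P10, RAB4B, TEDC1, TYK2 and RHOT2). The class depended on scaling: median scaling called 12 genes, of which 5 were among these 13, and the authors' normalized values called 11, of which 9 were.

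PTGER4, a prostaglandin E2 receptor, had DLD-1 values of 5.00 to 6.21 in controls (median 5.58) and 6.23 to 7.13 with CSE (median 6.56), and Jurkat values of 8.65 to 9.47 (median 9.27) and 8.14 to 8.96 (median 8.46). DLD-1 groups were separate and 5 of 6 Jurkat CSE arrays lay below all controls. It rose by 0.95 in DLD-1 (adjusted p = 0.00029) and fell by 0.70 in Jurkat (adjusted p = 0.0016), with a difference of 1.65 ± 0.23 (adjusted p = 2.1e-05). TENT5C, a poly(A) polymerase, rose by 0.66 and fell by 0.69, and ASB1, a ubiquitin ligase adaptor, rose by 0.61 and fell by 0.66. ZNF791 rose by 0.86 in DLD-1 and fell by 0.50 in Jurkat. The DLD-1 rise of TENT5C and the Jurkat fall of ZNF791 did not pass with the authors' normalized values or without background correction. HOXC8, a homeobox gene, was at the edge of detection in DLD-1, on 0 of 12 controls and 3 of 6 CSE arrays.

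ZFP36L1, which destabilises AU-rich mRNAs, moved the other way. Its DLD-1 values were 10.23 to 10.79 in controls (median 10.66) and 9.53 to 10.26 with CSE (median 9.91), and its Jurkat values were 7.21 to 8.46 (median 7.78) and 7.92 to 8.91 (median 8.54). In DLD-1 5 of 6 CSE arrays lay below all controls, and in Jurkat 4 of 6 lay above. The DLD-1 change was -0.68 (adjusted p = 0.0049), the Jurkat change 0.76 (adjusted p = 0.00025) and the difference -1.43 ± 0.21 (adjusted p = 4.5e-05). With median scaling it was Jurkat-restricted.

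RNU4ATAC, a minor spliceosome RNA, fell by 0.86 in DLD-1 (adjusted p = 0.029) and rose by 1.43 in Jurkat (adjusted p = 2.5e-05). Its DLD-1 values were 5.88 to 7.89 in controls (median 6.84) and 5.40 to 6.43 with CSE (median 5.98), and its Jurkat values were 5.29 to 6.27 (median 5.84) and 6.99 to 7.43 (median 7.29). Only the Jurkat groups were separate. Its difference of -2.29 ± 0.34 (adjusted p = 4.5e-05) was the widest of the 13. MTND5P10, a nuclear pseudogene of a mitochondrial gene whose signal cannot be told apart from that gene's by the name alone, fell by 0.58 and rose by 0.46.

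Of the remaining 5, which had differences between -0.87 and -1.06, TYK2 encodes a cytokine receptor kinase, TAB1 an activator of the kinase TAK1, RHOT2 a mitochondrial transport GTPase, RAB4B an endosomal recycling GTPase and TEDC1 a centriole protein. A second RAB4B probe changed by -0.18 in DLD-1, which did not pass.

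**Figure D5:**
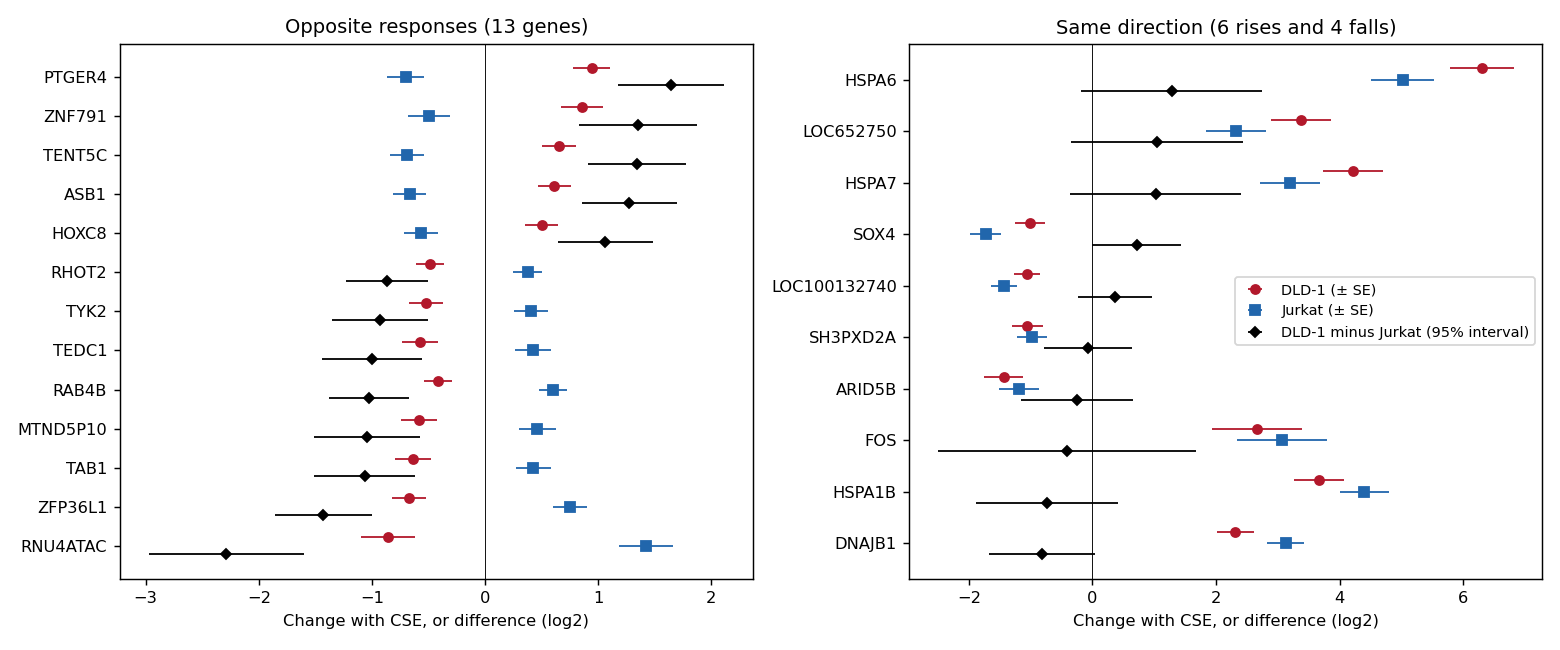
Change with CSE (horizontal axes, log2) in DLD-1 (circles, ± SE) and Jurkat (squares, ± SE) with the difference between the lines (diamonds, 95% interval) for the 13 opposite genes and for 10 same-direction genes. The intervals of the opposite genes all lie away from 0, and that of FOS runs from -2.50 to 1.68.

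Other lists showed few genes that differed. In the ATF4 list 1 of 25 passed in the difference (SLC7A11), in the G2/M list 1 of 19 (AURKB, a mitotic kinase, at -0.70 and 0.33 with a difference of -1.02 and an adjusted p of 0.048), and in the immediate early list 3 of 31 (GADD45B, KLF2 and MYC). These shares, 1 of 25 and 1 of 19 among them, stood beside 6.5% of all genes. In the MYC network 4 of 11 passed (MYC, MAX, MGA and MXD4), and in the ID and BMP list 4 of 7 (ID1, ID2, SMAD6 and BAMBI). Both stood beside the same 6.5% of all genes. No member passed in the difference for unfolded protein response, NF-kB target, pro-apoptotic, p53 target, hypoxia, cholesterol synthesis, G1/S, respiratory chain, intestinal marker, fibroblast marker, or monocyte and B cell marker genes. Of the 181 measured entries of these lists, 32 had an unadjusted p under 0.05 for the difference in limma (17.7%), beside 3374 of all genes (21.1%).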

How the data were processed

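Values were taken from 36 Illumina bead arrays with 47323 probes each. The deposited table gives, per the file headers, a mean bead intensity and a detection p-value per probe and array. The authors' own normalized values, log2-transformed here, were used as an alternative. The software and versions behind the deposited values are not given in the sources used here. Intensities were corrected with limma's normexp method (version 3.58.1, R 4.3.3; background inferred from the detection p-values, offset 16), quantile-normalized and log2-transformed. A probe was kept when its detection p-value was under 0.05 on at least 6 arrays (22612 probes). The brightest kept probe stood for a gene, and 1457 probes named only by a Unigene cluster were tested apart, which left 16015 genes. Names came from the deposited table, updated through RefSeq tables for 1848 older symbols and 1147 gene numbers.

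One limma model held the 4 group means, with 95% intervals and no covariate, and it was tested on simulated data. Alternatives changed scaling, background, filter, probe choice, BeadChip, weights and threshold, or left out an array each. Arrays in a group were numbered in accession order.

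The comparison, the classes and the gene lists were chosen with earlier results of these data known. Genes named by rule were HSPA6 and BCL2L1, the 8 widest differences in each direction among genes expressed in both lines, 8 opposite genes, 6 shared rises and 4 shared falls, 3 in each direction not detected in a line, and up to 3 per list; all others were named after their values were seen. Promoters came from RefSeq (GRCh38.p14) for 38 of the 60 genes named by rule.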

Additional observations from a re-analysis of the deposited data

Results flagged for a closer look

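The response to CSE differed between the lines, by the test of the difference itself, for 49 of the 60 genes named by rule. Values are the log2 change in DLD-1 minus that in Jurkat. The response was lower in DLD-1 with the widest differences for ID2 (-4.40), GADD45B (-3.16), SNORD3A (-2.96), RNU1-5 (-2.88), RNA5S9 (-2.85), SNORD3D (-2.84), RNU1-4 (-2.64), RNU1-3 (-2.64), RNU11 (-2.50). It was lower by less for RNU4ATAC (-2.29), RMRP (-2.23), RNU4-1 (-1.50), ZFP36L1 (-1.43), NUAK2 (-1.43), BAMBI (-1.43). The smallest of the negative differences were those of SNORD12 (-1.34), MTND5P10 (-1.05), AURKB (-1.02), HSF2 (-0.67), CD5 (-0.61). The response was higher in DLD-1 with the widest differences for CYP1A1 (4.34), HMOX1 (3.97), MIR1978 (2.15), OSGIN1 (2.14), KLF2 (2.13), FAM43A (2.10), GCLM (2.00), ZNF264 (1.92), LRRC58 (1.83). Next came SRXN1 (1.79), BCL11B (1.73), PTGER4 (1.65), SLC7A11 (1.63), CYP1B1 (1.54), XIAP (1.40), ZNF791 (1.35), TENT5C (1.34), HSPA4L (1.33). The smallest of the positive differences were those of MYC (1.28), ASB1 (1.28), HSPA1A (1.21), BCL2 (1.14), TAL1 (1.11), RAG1 (1.08), HOXC8 (1.06), MGA (0.93), MAX (0.89), SMAD6 (0.82), PSMD12 (0.66).

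Among 120 groups of 6 CSE arrays (60 genes in 2 lines), 2 held an array far from the others, and chance gives about 1 in 20 groups. HMOX1 was 6.48 on Jurkat CSE replicate 5 and 4.72 to 5.34 on the others. FAM43A was 4.55 on Jurkat CSE replicate 1 and 4.38 to 4.44 on the others, all of them not detected.

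Entries named only by a Unigene cluster were tested apart from the genes. Of 1457 such entries, 56 (3.84%) passed in the difference, 42 with the higher response in DLD-1 and 14 with the lower.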

How the results depend on the processing

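The count of 1041 genes whose response differed was 1345 with median scaling, 1061 with the authors' normalized values, 1075 without background correction, 728 without a filter, 901 with detection required in each line, 1055 with the mean of probes, 985 with BeadChip as a block, 1060 with array weights and 1002 with trend and robust fits. Counts below are given as total, opposite, DLD-1-restricted, Jurkat-restricted and same-direction genes. At an adjusted p under 0.01 they were 274, 4, 29, 219 and 85. BeadChip 1 alone gave 5, 0, 4, 1 and 15 and BeadChip 2 alone 170, 4, 42, 115 and 38. BeadChip 3 alone gave 0 in every class by limma, with 1208 genes at an unadjusted p under 0.05; each BeadChip holds fewer samples. Median scaling left 116 same-direction genes and 7 heat shock genes among them, no filter left 5 opposite genes, and detection in each line 91 DLD-1-restricted genes; the cause was not tested. Leaving out 1 array gave 621 to 1237 genes in total, 4 to 17 opposite, 51 to 233 DLD-1-restricted, 459 to 823 Jurkat-restricted and 119 to 249 same-direction. The total was 621 without Jurkat CSE replicate 1, 630 without DLD-1 CSE replicate 3 and 639 without DLD-1 CSE replicate 5. The small RNAs that differed numbered 19 to 22, the NRF2 genes 4 to 9, and the same-direction heat shock genes 7 to 11, with 7 without Jurkat CSE replicate 4 or 5. Of the named genes, HSPA4L (-0.02218) and SLC7A11 (-0.29) changed sign on BeadChip 3 alone. The calls of AURKB, CD5, HSF2 and HSPA4L were lost with BeadChip as a block. In checks added after the data were seen, of 102 genes, those named by rule and further ones named in the text, 66 stayed in their class with median scaling, the authors' normalized values and no background correction, and no difference that passed turned its sign with these. Signal near background limits genes detected on few arrays. No paired analysis was possible because the labels give no replicate numbers that the groups share.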

Other observations

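Metallothioneins, small zinc-binding proteins, showed wide but variable differences. The median difference of the 9 measured genes of the list was -1.54, while 0 passed in the difference by limma and 4 had an unadjusted p under 0.05. MT1X changed by -1.68 in DLD-1, which did not pass (adjusted p = 0.29), and by 0.11 in Jurkat, and MT1F fell by 1.32 in DLD-1 (adjusted p = 0.049), a call lost with each of the 3 other scalings. The list's median difference was -0.32, -0.73 and -2.30 within BeadChips 1, 2 and 3.

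Families were also counted after their values were seen. Of 142 small nucleolar and Cajal body RNAs, 36 rose (25.4%, beside 8.3% of all genes) and 18 fell (12.7%, beside 11.6%) in Jurkat. In DLD-1 2 rose (1.41%, beside 1.85%) and 3 fell (2.11%, beside 2.46%), and 12 had the higher (8.45%, beside 4.13%) and 15 the lower response in DLD-1 (10.6%, beside 2.37%). Of 380 zinc finger genes, 20 rose (5.26%) and 72 fell (18.9%) in Jurkat, 10 rose (2.63%) and 8 fell (2.11%) in DLD-1, and 36 had the higher (9.47%) and 7 the lower response (1.84%) in DLD-1, beside the same shares of all genes.

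Among the 1041 genes that differed, 309 had further kept probes. Of these 420 further probes, 361 had the same sign and 82 passed with it, while 0 passed with the opposite sign.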
